A study of Danio rerio with 3 samples.

Results

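The genes apaf1 and aifm1 encode 2 proteins of the mitochondrial route of cell death, and their transcripts were measured by 4 of the 15502 zebrafish probe sets of a 1-colour Affymetrix array. A probe set was taken as a member when the platform annotation gave it a single gene symbol and that symbol was apaf1 or aifm1, which left 2 probe sets for each gene. The pair was chosen by the log2 ratios of PGRP-SC siRNA over control siRNA in these same arrays, higher for apaf1 and lower for aifm1, so their ratios are a description and carry no test. RNA came from pools of 400 whole zebrafish embryos at 24 hours post-fertilization, with 1 pool and 1 array per group: embryos left uninjected, embryos that received a control siRNA as zygotes, and embryos that received an siRNA directed at zfPGRP-SC, a peptidoglycan recognition protein gene. The injected zygotes got 1 nL of siRNA at 300 ng/µl, and the embryos of all groups came from mixed parents. For the PGRP-SC sample the word siRNA comes from the study's design text, not from its own label. The strain and the siRNA sequences are not given in the sources used here. With 1 array per group there is no replicate spread, no p-value was computed, and the number of arrays limits the precision of every value.

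APAF1 is the scaffold of the apoptosome. When mitochondria release cytochrome c into the cytosol, cytochrome c binds APAF1, which assembles into a wheel-shaped complex that recruits and activates caspase-9, and caspase-9 in turn activates the executioner caspases. AIFM1, known as apoptosis-inducing factor, is a flavoprotein that sits in the mitochondrial intermembrane space of healthy cells, where in mammals it helps the import protein CHCHD4 and is needed for intact respiratory complex I. In dying mammalian cells it can move to the nucleus and take part in the breakdown of chromatin without caspases. Programmed cell death removes cells in many tissues of a normal zebrafish embryo at this age.

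The probe set Dr.10209.1.S1_at was annotated through the RefSeq mRNA of apaf1 itself, whereas the other apaf1 probe set, Dr.13684.2.A1_at, had no accession in the annotation. The number after "Dr." in such names is that of the sequence cluster from which the array maker built the probe set. Dr.13684.2.A1_at shares its cluster number with Dr.13684.1.S1_at, which is annotated to btf3l4, a relative of the transcription factor gene btf3. Of 985 cluster numbers shared by 2 or more singly annotated probe sets on this array, 163 (16.5%) carried more than 1 gene. In RefSeq's GRCz12tu gene table, apaf1 spans 4 further protein-coding genes, spi2, spic, dnajb9b and avpr2l, and overlaps the muscle gene mybpc1, and 0 of these 5 had a probe set under its name. The probe sets Dr.25618.1.A1_at and Dr.7667.1.S1_at of aifm1 were each annotated through an expressed sequence of their own, and aifm1 overlaps no other gene in that table. No genome of the array's build was used, so the exons that the probe sets cover are not given here.

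The 2 apaf1 probe sets gave different pictures. Signals, which are linear and scaled to a common trimmed mean, of Dr.13684.2.A1_at were 208.8 without injection, 134.6 after control siRNA and 333.4 after PGRP-SC siRNA. The PGRP-SC siRNA array was thus the highest and the control siRNA array the lowest of the 3. For Dr.10209.1.S1_at the signals were 86.2, 137.9 and 138.3 in the same order. Here the injected arrays had the same level, and the uninjected array lay below the signal floor of 101.7, the 40th percentile of all signals, under which values were not ranked.

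With PGRP-SC siRNA against control siRNA, Dr.13684.2.A1_at had a log2 ratio of 1.31, a 2.48-fold higher signal, and Dr.10209.1.S1_at a log2 ratio of 0.0033, or 1.00-fold. In this comparison 2.83% of 9853 probe sets were 2-fold or more higher and 3.5% 2-fold or more lower, and the ratio of Dr.13684.2.A1_at was the 116th highest. Against uninjected embryos, Dr.13684.2.A1_at had a log2 ratio of 0.67, and Dr.10209.1.S1_at was at least 1.36-fold higher, a bound because the uninjected side was set to the floor. Without the floor both probe sets had a log2 ratio of 0.67 to 0.68 in that comparison. Neither reached 2-fold, which 5.56% of 9992 probe sets did upwards and 6.34% downwards. Between the controls the probe sets went opposite ways. Control siRNA over uninjected was -0.63 for Dr.13684.2.A1_at and at least 0.44 for Dr.10209.1.S1_at, where 1.1% of 9799 probe sets were higher and 0.857% lower by 2-fold or more. The 2-fold difference of apaf1 was therefore seen with 1 of its 2 probe sets and against 1 of the 2 controls. The probe set that shares the cluster number, Dr.13684.1.S1_at of btf3l4, had signals of 2639, 2141 and 2437, and a log2 ratio of 0.19 for PGRP-SC siRNA over control siRNA.

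**Figure D1:**
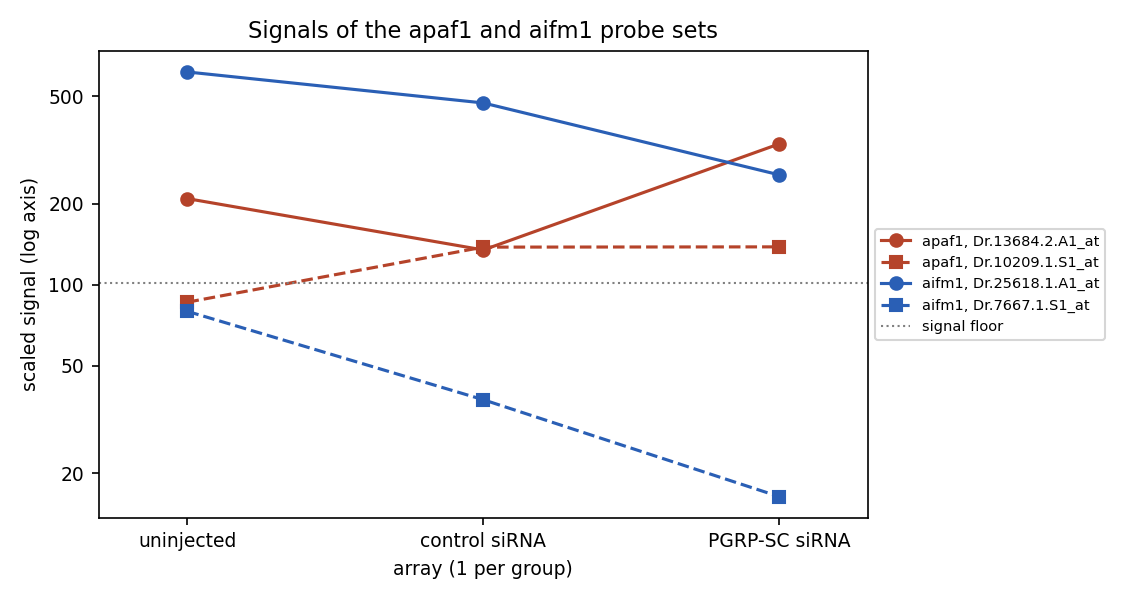
Scaled signal (log axis) of the 4 probe sets in the 3 arrays, 1 point per array, with solid lines for the brighter and dashed lines for the dimmer probe set of each gene and a dotted line at the signal floor. The apaf1 probe sets meet in the control siRNA array, at 134.6 and 137.9, and part in the other arrays. The brighter aifm1 probe set steps down from uninjected to control siRNA to PGRP-SC siRNA, and the dimmer one lies under the floor throughout.

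The disagreement within apaf1 was set beside that of other genes with 2 probe sets above the floor in all arrays, which Dr.10209.1.S1_at was in the injected arrays only. For PGRP-SC siRNA over control siRNA the apaf1 ratios lay 1.30 apart on the log2 scale. Among 731 other genes the median distance was 0.27 and the 90th percentile 0.74, and 11 genes had probe sets at least as far apart as those of apaf1. Probe sets near the floor vary more. Among the 212 genes whose 2 probe sets both had a mean log2 signal within 1 of that of Dr.13684.2.A1_at, the median was 0.36, and 6 genes (2.83%) were as far apart. With no floor, a setting that admits probe sets of any signal, 229 of 1538 other genes (14.9%) were as far apart. No distance is given for the comparisons with uninjected embryos, where Dr.10209.1.S1_at has only a bound. Of these 731 genes, 24 had at least 1 probe set 2-fold higher with PGRP-SC siRNA than with control siRNA. In 4 of the 24 both probe sets passed 2-fold, in 19 the weaker ratio was above 0, and the median of the weaker ratio was 0.50. Among the 212 genes of similar signal there were 11 such genes, in 3 of which both passed 2-fold, while in 7 the weaker ratio was above 0 and in 4 it was not. A second probe set short of 2-fold was thus common among these genes. A distance as large as that of apaf1 was less common, at 11 of 731, 6 of 212 and, with no floor, 229 of 1538 genes. The apaf1 distance holds the high ratio by which apaf1 was chosen, while the other genes were not chosen in that way. These shares are therefore a description and do not measure how unusual apaf1 is.

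**Figure D2:**
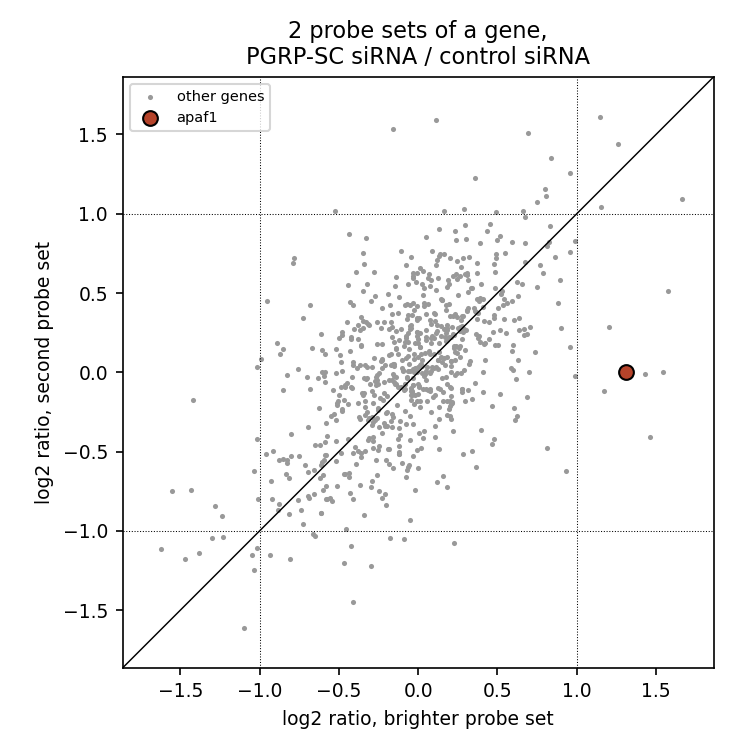
Log2 ratio of PGRP-SC siRNA over control siRNA for the brighter (x axis) and second (y axis) probe set of each gene with 2 probe sets above the floor in all arrays (grey) and of apaf1 (red), whose second probe set was under the floor in the uninjected array. The solid line marks equal ratios and the dotted lines 2-fold, and apaf1 lies at 1.31 and 0.0033, far to the right of the line.

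For aifm1 the probe set above the floor was lower in the injected arrays and lowest with PGRP-SC siRNA. The signal of Dr.25618.1.A1_at was 616.4 without injection, 473.0 after control siRNA and 255.9 after PGRP-SC siRNA, all above the floor. Dr.7667.1.S1_at had 79.7, 37.4 and 16.4, all under it. These signals fall in the same order, but levels under the floor were not ranked and give no ratio. The second probe set therefore counts as a measurement of neither the order nor the size.

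Dr.25618.1.A1_at had a log2 ratio of -0.89 for PGRP-SC siRNA over control siRNA, a 1.85-fold lower signal that stops short of 2-fold, and its ratio was the 499th lowest of 9853. Against uninjected embryos the log2 ratio was -1.27, or 2.41-fold lower, the 363rd lowest of 9992. Between the controls it was -0.38, 1.30-fold lower with control siRNA.

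The difference between the 2 control arrays gives a scale for these sizes, although it also holds any effect of injection. Both genes were chosen by their ratios over control siRNA, so the shares below describe these arrays and test nothing. Among 2252 probe sets with a mean log2 signal within 0.5 of that of Dr.13684.2.A1_at, 24 (1.07%) differed between the controls by at least the 1.31 seen for that probe set with PGRP-SC siRNA. Among 2259 of similar signal, 40 (1.77%) were at least as much higher with PGRP-SC siRNA over control siRNA. Against uninjected embryos its ratio was 0.67. In that comparison 348 of the 2259 (15.4%) were at least as much higher, and 292 of the 2252 (13.0%) differed between the controls by that much. For Dr.10209.1.S1_at, 456 of 1850 probe sets of similar signal (24.6%) differed between the controls by at least its bound of 0.44 over uninjected. For Dr.25618.1.A1_at, 69 of 2128 probe sets of similar signal (3.24%) differed between the controls by 0.89 or more, and 17 (0.799%) by at least as much as the -1.27 seen against uninjected embryos. For PGRP-SC siRNA over control siRNA, 133 of the 2128 (6.25%) were at least as much lower as aifm1, and against uninjected embryos 107 (5.03%). The 95th percentile of the difference between the controls was 1.87-fold at the signal of Dr.13684.2.A1_at and 1.75-fold at that of Dr.25618.1.A1_at.

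**Figure D3:**
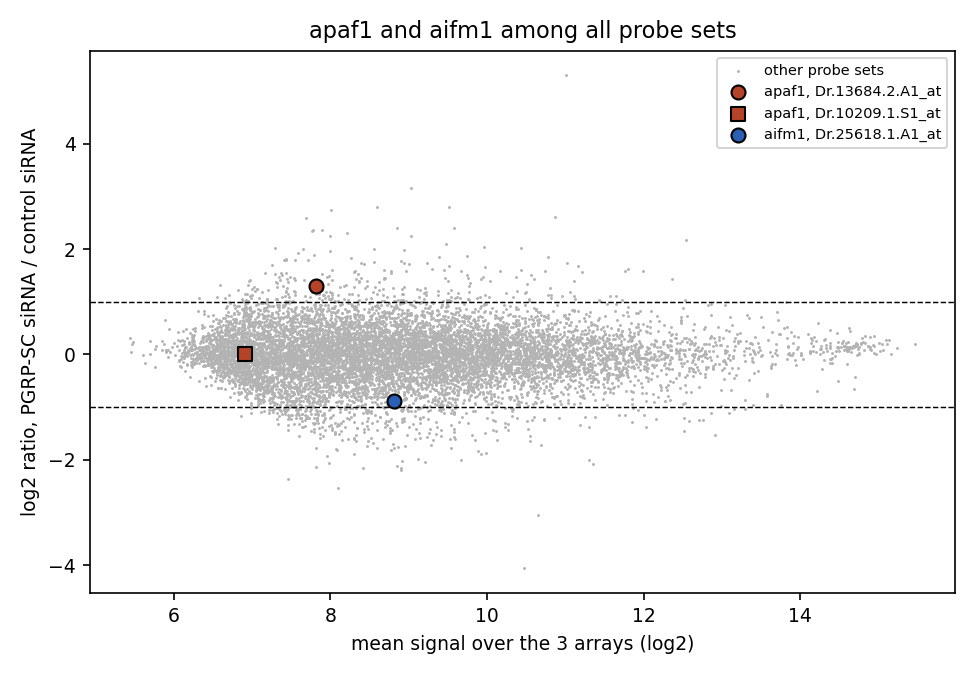
Log2 ratio of PGRP-SC siRNA over control siRNA against the mean log2 signal for the 9853 probe sets with a ratio (grey), with the 3 apaf1 and aifm1 probe sets that have one in colour and dashed lines at 2-fold. Ratios with 1 side under the floor are drawn at their bound, Dr.13684.2.A1_at of apaf1 lies above the upper line at 1.31, and Dr.25618.1.A1_at of aifm1 lies just inside the lower line at -0.89.

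Other features of the arrays moved along with these values, and their part in them was not tested. The array has 9 probe sets for the bacterial and phage transcripts that are added to every hybridisation. Their log2 ratios ran from 0.03 to 0.49 for PGRP-SC siRNA over control siRNA, with a median of 0.26. Between the controls they ran from -0.59 to -0.02. In both comparisons this is the direction of Dr.13684.2.A1_at, and between the controls alone that of Dr.25618.1.A1_at. For PGRP-SC siRNA over uninjected they ran from -0.33 to 0.24, with a median of 0.02, beside 0.67 for Dr.13684.2.A1_at. The 5′ to 3′ signal ratio of the array's acta1 control, a sign of RNA length and priming, was 0.369, 0.205 and 0.127 in the uninjected, control siRNA and PGRP-SC siRNA arrays, and that of GAPDH 0.350, 0.347 and 0.498. Of 55 markers of the cells of a whole embryo, 39 were on the array and 34 were above the floor in all arrays, with at least 1 from each of 11 cell types. The summed signal of the 5 skeletal muscle markers measured, of 7 listed, over the arrays in that order was 48524, 30165 and 16978, and that of the 5 primitive erythrocyte markers measured, of 7 listed, 46536, 31296 and 21600. None of these 10 was under the floor. The sums of 7 of the 11 cell types stepped down in the order seen for aifm1, also those of neurons, heart muscle, hatching gland, lens and retina, and macrophages and neutrophils. For the hatching gland the sum is that of 1 gene, agr2. That of lens and retina rests mainly on crybb1, at 672.4, 194.0 and 178.5. The other gene, rx1, was above the floor with control siRNA alone. Single markers could differ from their sum, and cmlc1 of heart muscle and myod1 of skeletal muscle were highest with control siRNA. Of the 5 macrophage and neutrophil markers, only 2 were lower with PGRP-SC siRNA than with control siRNA and 3 were higher, with a median log2 ratio of 0.44. The sums of notochord, neural progenitors and endothelium were highest with control siRNA. The 4 epidermal markers measured, of 5 listed, summed to 50074, 50620 and 57736, with 2 of the 4 lower with PGRP-SC siRNA than with control siRNA. In whole embryos, fewer cells of a type and less RNA per cell cannot be told apart.

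The partners of apaf1 and aifm1 at the mitochondrion came from a list of 14 genes, 5 of which, beside the pair, were on the array. Over all genes, taken by their brightest probe set, 2.87% of 6514 were higher and 2.93% lower by 2-fold or more with PGRP-SC siRNA than with control siRNA. Of the 4 partners with a ratio, 0 passed 2-fold in this comparison, 3 were above 0, and their median log2 ratio was 0.42 beside -0.0026 for all genes. The gene diabloa encodes a protein that leaves mitochondria and blocks inhibitors of apoptosis, and its signals were 175.9 without injection, 419.9 after control siRNA and 696.6 after PGRP-SC siRNA. Its signal was highest with PGRP-SC siRNA, at a log2 ratio of 0.73 over control siRNA and 1.99 over uninjected, and it also differed between the controls, at 1.26. The initiator casp9, which the apoptosome activates, had 241.2, 199.1 and 301.7, the same order of arrays as Dr.13684.2.A1_at, and a log2 ratio of 0.60. The cytochrome c gene cycsb, whose product triggers APAF1, had 7047, 6145 and 4569, the order seen for aifm1, and a log2 ratio of -0.43. The AIFM1 relative aifm2, a flavoprotein that protects lipids from peroxidation in mammals, had 494.6, 558.0 and 659.8. Its log2 ratio was 0.24, on the other side of 0 from aifm1. The septin gene septin4a was under the floor in all arrays.

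Of 14 caspase genes, 5 were on the array and 3 gave a ratio, among them casp9. The inflammatory caspase gene caspb had signals of 177.5, 152.4 and 107.7 and a log2 ratio of -0.50, and its other probe set was under the floor throughout. The death receptor initiator casp8 had 71.5, 16.1 and 144.5, so it passed the floor with PGRP-SC siRNA alone, at least 0.51 higher on the log2 scale. The genes casp2 and caspa were under the floor in all arrays. Of 9 measured genes whose products regulate APAF1 or the step at which it acts, 0 were 2-fold apart in any comparison. Over all genes, 2.87% were higher and 2.93% lower by 2-fold or more for PGRP-SC siRNA over control siRNA. The shares were 5.76% and 6.09% for PGRP-SC siRNA over uninjected, and 1.11% and 0.774% between the controls. Beside these shares, 0 of 9 does not set the genes apart. The APAF1-binding inhibitor gene aven was lower with PGRP-SC siRNA than with control siRNA, at -0.52, the prothymosin gene ptmaa was at -0.38 and cse1l, an exportin gene, at 0.17. The median of the 9 genes was -0.03 for PGRP-SC siRNA over control siRNA.

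The BCL2 family decides whether mitochondria release cytochrome c, and its survival and death arms were both measured only in part. Over all genes, 2.87% were higher and 2.93% lower by 2-fold or more with PGRP-SC siRNA than with control siRNA. Lists as short as these cannot be told from such shares by their counts. Of 4 survival genes with a ratio, 3 were above 0 and 0 passed 2-fold, with a median of 0.43. The signals of mcl1a were 529.7, 527.4 and 929.1, with the PGRP-SC siRNA array alone apart, a log2 ratio of 0.82. Those of mcl1b were 508.6, 725.9 and 1077, a ratio of 0.57, and bcl2l1, which encodes Bcl-xL, had 0.30. Of 7 death genes with a ratio, 1 was at least 2-fold higher and 0 lower, with a median of 0.21. This gene was bnip3lb, which in mammals acts mainly in the removal of mitochondria, with signals of 647.6, 697.5 and 1457 and a ratio of 1.06, while its second probe set was under the floor. The activator gene bida had 0.66, the effector gene baxa had -0.11, and bcl2l13 had -0.62 with its second probe set at -0.67. The death genes bik and bbc3 passed the floor with PGRP-SC siRNA alone, so they could enter only above 0. Their ratios are bounds, at 0.21 and 0.48, and the median of the 7 is the bound of bik. The inhibitors of apoptosis xiap, which holds caspases in check, and birc5a, which also acts in cell division, were at 0.63 and 0.54, and birc2 at -0.09. In the death receptor route 4 of 14 genes gave a ratio. They were the death effector domain gene dedd1 at 0.98, dedd at 0.25, the adaptor gene tradd at -0.07 and the ligand gene tnfsf10l at -0.72. The receptor genes fas and tnfrsf1a and the adaptor gene fadd were under the floor in all arrays.

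The gene APAF1 is a p53 target in mammals, and the p53 list held the most genes past 2-fold. Without apaf1 it had 14 genes with a ratio, of which 6 were at least 2-fold higher and 0 lower with PGRP-SC siRNA than with control siRNA, with a median of 0.78, where 2.87% of all genes were higher and 2.93% lower by that much. The 3 genes below 0 were mdm4, an inhibitor of p53, at -0.55, tp53inp1 at -0.15 and baxa at -0.11. Among the 14, gadd45aa and bbc3 passed the floor with PGRP-SC siRNA alone, so they could enter only above 0. Their ratios are bounds, at 0.41 and 0.48. The list was known from earlier results of these arrays to be high, so this is no independent evidence. Its leading genes were phlda3, an inhibitor of AKT signalling in mammals, at least 1.80 higher on the log2 scale, the growth arrest gene gadd45bb at 1.54, and rps27l at 1.39. Against uninjected embryos they were at 1.38, 1.57 and 1.65. Beside these, Dr.13684.2.A1_at was at 1.31 over control siRNA but only 0.67 over uninjected, and Dr.10209.1.S1_at at 0.0033 and at least 0.44. The 2 comparisons share the PGRP-SC siRNA array.

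Genes tied to the resident role of AIFM1 were mostly on the lower side. Of 12 genes of intermembrane space import and inner membrane organisation with a ratio, 11 were below 0 for PGRP-SC siRNA over control siRNA, 1 was at least 2-fold lower and 0 higher, with a median of -0.35. Among all genes 2.93% were lower and 2.87% higher by 2-fold or more in that comparison, with a median of -0.0026. The copper chaperone gene cox17 had signals of 3826, 2415 and 1063 and a log2 ratio of -1.18. This is the order of arrays seen for aifm1. The gene chchd4a, whose product is the import partner of AIFM1, had 155.0, 193.8 and 109.8 and a ratio of -0.82, so that its control siRNA array was the highest. The crista organiser gene chchd3b had 394.4, 276.0 and 162.4 and a ratio of -0.76. Against uninjected embryos 3 of the 12 (cox17, chchd3b and chchd10) passed 2-fold downwards, the median was -0.47, and among all 6565 genes 6.09% passed 2-fold downwards and 5.76% upwards. Of 40 genes listed by name as complex I subunits, 32 were on the array and gave a ratio. Of these 32, 21 were below 0 over control siRNA and 29 over uninjected, with medians of -0.13 and -0.30. Between the controls 27 were below 0, with a median of -0.23. The list includes ndufa4a, whose product is counted with complex IV in mammals, at 0.16 over control siRNA and 0.08 over uninjected. For all genes the medians against uninjected embryos were 0.023 with PGRP-SC siRNA and 0.016 with control siRNA. The subunit genes with the largest differences over control siRNA were ndufs8a at -0.68, ndufc2 at -0.58 and ndufv1 at -0.53. The ratio of aifm1, -0.89, lay below all 32, but aifm1 was chosen for its low ratio in this comparison.

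Of the genes of the nuclear steps, 0 were called 2-fold apart between PGRP-SC siRNA and control siRNA, although parp3 has only a bound and dffa, gsdmeb and lmnb2 gave no ratio. Among 7 PARP and chromatin partner genes of AIF the median was 0.04. The nuclease gene of the AIF route in mammals, mif, was at -0.42, the ADP-ribose hydrolase gene adprs at -0.52, and parp3 at 0.58 or more with its control siRNA signal under the floor. Among 4 caspase execution targets the median was 0.14, with the caspase-activated nuclease gene dffb at 0.40, acin1b at 0.28 and acin1a at -0.15. Over all 12 lists and without apaf1 and aifm1, 100 genes had a ratio, and 7 were at least 2-fold higher and 1 lower, 7.0% and 1.0% beside 2.87% and 2.93% of all genes. The 6 of the p53 list and bnip3lb make up the 7. The p53 list was known to be high from earlier results of these arrays, so the 7.0% is no independent evidence. Between the controls, 1 of 98 was at least 2-fold higher, diabloa, and 0 lower, beside 1.11% and 0.774% of 6462 genes.

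**Figure D4:**
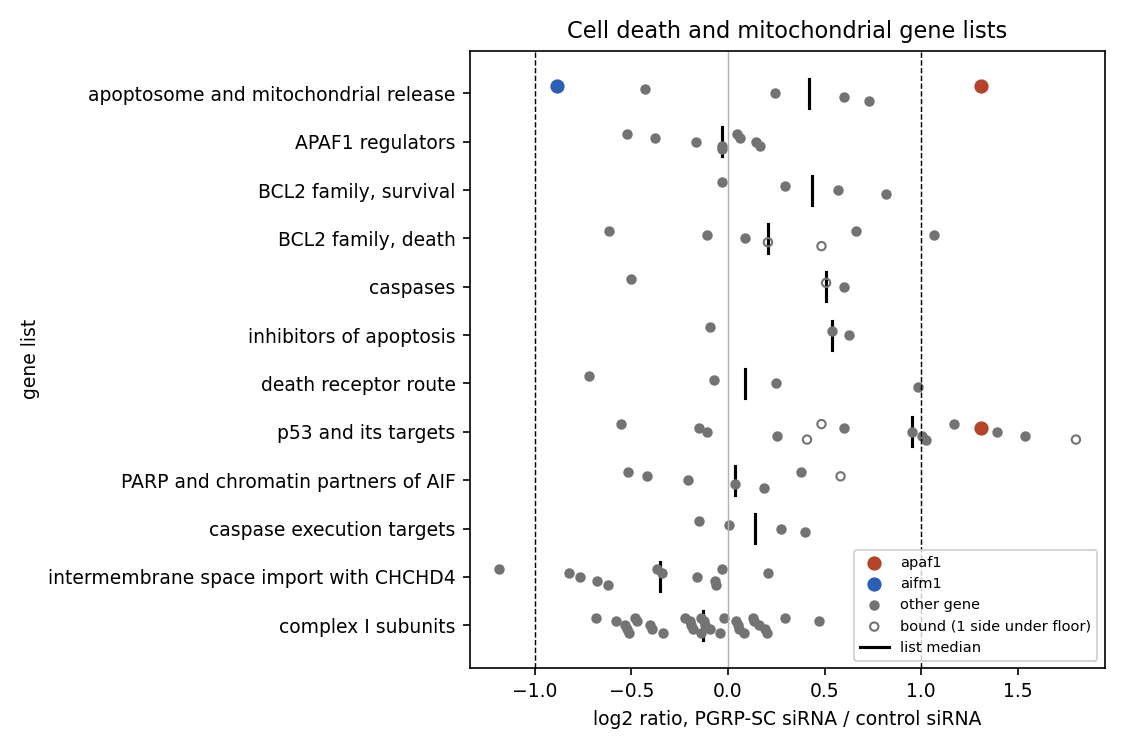
Log2 ratio of PGRP-SC siRNA over control siRNA for each gene of the 12 lists with a ratio, by its brightest probe set, with open circles for bounds, black bars for list medians and dashed lines at 2-fold. The gene apaf1 (red) is shown in the 2 lists that hold it, at 1.31, and aifm1 (blue) at -0.89 is the lowest of its list. Both apaf1 and aifm1 were chosen by these ratios. The p53 list holds most of the genes past the upper line.

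The genes most like each member over the 3 arrays were found by distance in the log2 ratios of control siRNA over uninjected and PGRP-SC siRNA over control siRNA, among 6333 probe sets of named genes above the floor in all arrays. Only 10 probe sets lay within 0.25 of Dr.13684.2.A1_at. Nearest was hibadha, an enzyme gene of valine breakdown, with signals of 209.9, 134.5 and 321.0, and next came the germ plasm gene dnd1, the glycosyltransferase gene mgat1a, the polyamine acetyltransferase gene sat1a.2 and gkap1. In contrast, 127 probe sets of 123 genes lay within 0.25 of Dr.25618.1.A1_at of aifm1. The nearest were the adhesion gene cadm3, with 375.8, 286.6 and 152.9, hadhaa, of mitochondrial fatty acid oxidation, with 316.6, 246.2 and 134.7, aldh7a1, of lysine breakdown, ip6k2a, an inositol phosphate kinase gene, and the endothelial gene plvapb. More probe sets thus lay within 0.25 of Dr.25618.1.A1_at than of Dr.13684.2.A1_at, whose ratios are larger in size. Probe sets that step down, or that dip and peak, were not counted as such. Likeness over 3 arrays says nothing of shared function.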

How the data were processed

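Total RNA of whole embryos was extracted with Trizol and biotin-labelled cRNA was hybridised, per the labels' protocols. The deposited table gave, for every probe set in an array, 1 intensity on a linear scale, made with GCOS 1.4 per the submitters' processing notes, and the 2% trimmed mean of the deposited intensity was 500.1 in each of the 3 arrays. Detection calls were not analysed here, and no source used names further settings. The 115 control probe sets were left out and the rest scaled to a common 2% trimmed mean, by factors of 0.999 to 1.00. Signals under the 40th percentile over all arrays were set to it. A log2 ratio with 1 side there is a bound, and with both sides there it is not given. Calls are ratios of at least 2-fold.

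In the lists each gene was represented by its brightest probe set over the arrays. Of the probe sets, 10795 had 1 gene, with symbols updated through gene IDs. Of 175 distinct list genes beside apaf1 and aifm1, 117 were on the array. The members and lists were chosen with earlier results of these data known. Named were all genes of the apoptosome and caspase lists above the floor in an array, the 3 with the largest ratio over control siRNA from each other list, and the 5 nearest patterns. Further genes, such as baxa, mdm4 and fas, were named after their values were seen. The counting of ratios was tested on simulated data. Python 3.11.15, pandas 2.3.3, numpy 2.4.6 and limma 3.58.1 (quantile and cyclic loess normalization only) were used.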

Additional observations from a re-analysis of the deposited data

How the results depend on the processing

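Scaling to a common median, quantile normalization, cyclic loess and the deposited signals moved no apaf1 or aifm1 ratio across 2-fold. Over 9 settings Dr.25618.1.A1_at of aifm1 ranged from -0.89 to -0.77 over control siRNA and from -1.30 to -1.12 over uninjected. With the floor at the 60th percentile both of these ratios are bounds, since its PGRP-SC siRNA signal of 255.9 was under that floor. The floor mattered for apaf1: at the 60th percentile, 269.4, Dr.13684.2.A1_at fell to a bound of 0.31 over both control siRNA and uninjected, since both control signals were under that floor. In the other settings it stayed at 2-fold or more over control siRNA, up to 1.38. Dr.10209.1.S1_at stayed between 0.0013 and 0.07 over control siRNA in the 8 settings that gave a value. The share of genes with probe sets as far apart as apaf1 was 14.9% with no floor and 2.83% within the signal window, an alternative chosen after seeing the data.

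Counts of probe sets depended on the floor. With no floor, 1450 were at least 2-fold higher and 1590 lower for PGRP-SC siRNA over control siRNA, 1738 and 2107 over uninjected, and 1082 and 1221 between the controls. With the floor at the 20th percentile they were 509 and 606 over control siRNA, 1070 lower over uninjected, and 240 and 254 between the controls. At the 60th percentile they were 155 and 137, 317 and 317, and 40 and 38. Of the pathway genes, with no floor 12 were higher and 2 lower over control siRNA, 17 and 8 over uninjected, and 5 and 4 between the controls. With the floor at the 20th percentile 11 were higher over control siRNA, 7 lower over uninjected, and 2 higher and 1 lower between the controls. At the 60th percentile 0 were higher between the controls, and with a pseudocount of 50 1 was lower. Fewer or more probe sets enter as the floor moves. No paired analysis was possible because each group has 1 array.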

Other observations

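Other genes of the lists also had probe sets that differed, and these were chosen after their values were seen. For PGRP-SC siRNA over control siRNA, the BCL2 family gene badb was at 0.09 with its brighter and 0.76 with its second probe set, and the cyclophilin gene ppiaa at 0.18 and -0.72. The lamin gene lmnb1 was at 0.01 and -0.38. The 4 probe sets of dedd were all above 0, from 0.25 to 0.70, and those of gadd45ba were at 1.00 and at least 1.52.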
